A study of Mus musculus with 6 samples.

Results

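Desmosomes are button-like junctions that hold neighboring epithelial cells together and anchor their keratin filaments. Their adhesive proteins are the desmosomal cadherins, the desmogleins and desmocollins, which span the membrane and bind cadherins of the adjacent cell. Inside the cell, the armadillo proteins plakoglobin and the plakophilins bind the cadherin tails, and plakin proteins, chiefly desmoplakin, connect them to keratins. In epithelial tumors that undergo epithelial-to-mesenchymal transition, desmosomes are among the junctions that are known to be taken apart. The desmosome components described here were 10 genes chosen by their function in the junction, among 24214 RefSeq features in the tables. Earlier results of these data were known when the choice was made. The 10 genes are the cadherins Dsg2 and Dsc2, the armadillo proteins Jup, Pkp1, Pkp2 and Pkp3, the plakins Dsp, Ppl and Evpl, and the tetraspan membrane protein Perp. All 10 were in the tables and passed the filter on low counts.

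The samples were 393P cells, an epithelial murine lung adenocarcinoma (LUAD) line described in the labels as KP lung cancer cells from lung tissue of strain C57BL/6. Of the 6 samples, 3 carried an empty vector (393P_vector) and 3 carried a vector that expresses ZEB1 (393P_ZEB1), a zinc finger transcription factor that represses epithelial genes. All were stable transfectants grown in RPMI-1640 with FCS. Whether the 3 samples of a group came from separate transfections, clones or cultures is not given in the sources used here, so p-values measure only the spread between these samples, which may be technical. Total RNA was sequenced on the SOLiD platform, and no protein was measured. Levels are given as CPM, the reads of a gene scaled to the normalized library size. 393P_ZEB1 was tested against 393P_vector in edgeR by the quasi-likelihood method across 13892 genes, and a gene was called when its Benjamini-Hochberg adjusted p was below 0.05. Other differences between the transfectants cannot be told apart from the effect of ectopic ZEB1.

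Total counts ranged from 54442450 to 79158012 per sample, at which 3 counts corresponded to 0.0379 to 0.0551 CPM. The ectopic gene matched the labels, since Zeb1 was at 21.2, 22.0 and 21.4 CPM in 393P_vector replicates 1 to 3 and at 54.9, 48.9 and 51.3 CPM in 393P_ZEB1 replicates 1 to 3, although reads from the vector and from the endogenous gene cannot be told apart. The summed level of 8 epithelial markers was 4370 to 5000 CPM in 393P_vector and 2750 to 3040 CPM in 393P_ZEB1, although the lung markers among them, Nkx2-1, Sftpc and Scgb1a1, did not pass the filter. Most of that sum came from the keratins Krt18, Krt19 and Krt8, with vector means of 2260, 1270 and 894 CPM and ZEB1 means of 1330, 968 and 585 CPM. The markers Epcam and Cdh1 fell further than these keratins, Epcam from a mean of 122 to 1.31 CPM and Cdh1 from 162 to 9.51 CPM. Fibroblast, leukocyte and endothelial markers summed to at most 4.24 CPM in any sample. One library stood apart from its group. Between 393P_vector replicate 3 and the other 2 vector samples, 8.35% and 9.23% of genes differed at least 2-fold, against 0.535% between those 2 samples. Calls that change without this library are given with both values.

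Of the 10 desmosome components, 6 were called lower in 393P_ZEB1 cells, 2 were called higher and 2 were not called. Across all tested genes, 19.3% were called lower and 18.3% were called higher. Without 393P_vector replicate 3, the counts were 7 lower and 2 higher, and over all genes they were 3776 and 3700, where the fit to all samples gave 2679 and 2539. With any other sample left out in turn, 4 components were called lower, and over all genes 1784 to 2357. The number of components called higher was 1 without 393P_ZEB1 replicate 1 or replicate 3 and 2 without any other sample. The count of components called lower thus moved in the same direction as that of all genes. Dsp, Pkp3, Perp and Dsg2 were called lower and Dsc2 was called higher with each sample left out. The levels of the groups did not overlap for 8 of the 10 components, which was also true of 52.8% of all tested genes. The median log2 fold change was -0.67 over the components and -0.02 over all tested genes, and the median size of the change, regardless of direction, was 1.23 and 0.39, respectively. Thus the components did not move as a block. The losses ran from 1.37-fold for Pkp1 to 136-fold for Pkp3, the cadherins moved in opposite directions, and Jup had equal means in both groups.

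**Figure D1:**
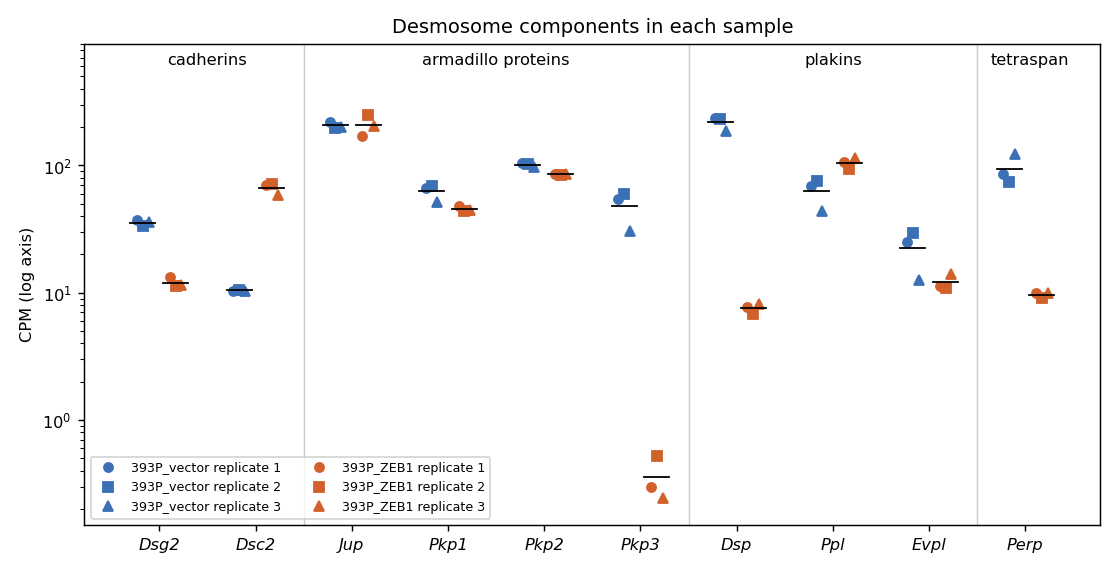
CPM of the 10 desmosome components on a log axis in each 393P_vector sample (blue) and each 393P_ZEB1 sample (orange), 3 of each, with a black line at each group mean and the marker shape giving the replicate. The groups are far apart for Pkp3, Dsp, Perp and Dsc2, and overlap for Jup and Evpl.

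**Figure D2:**
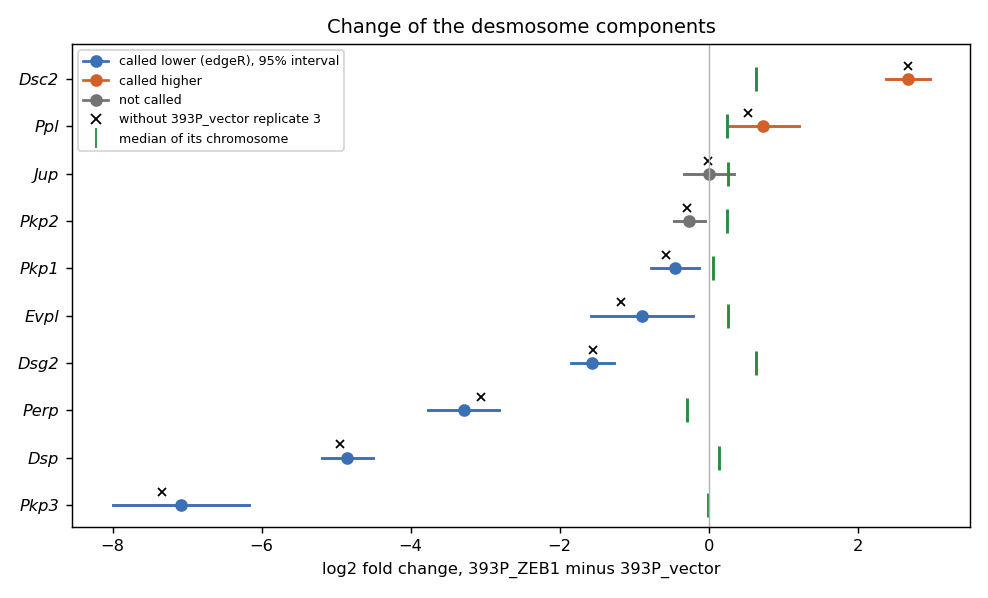
Log2 fold change of each desmosome component, 393P_ZEB1 minus 393P_vector, with its 95% interval from edgeR, colored by the call. Crosses give the value without 393P_vector replicate 3 and green ticks the median of all tested genes on the same chromosome, which is highest, at 0.64, for chromosome 18, the location of Dsc2 and Dsg2.

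The desmosomal cadherins changed places. Dsg2, the desmoglein found in simple as well as stratified epithelia, lies on chromosome 18 (plus strand, 20558116 to 20604526 on GRCm38, the build of all gene coordinates here). Its level was 37.2, 33.3 and 35.8 CPM in 393P_vector replicates 1 to 3 and 13.4, 11.3 and 11.4 CPM in 393P_ZEB1 replicates 1 to 3. Each 393P_ZEB1 sample was below each 393P_vector sample, and the means were 35.4 ± 1.97 CPM and 12 ± 1.17 CPM (SD, n = 3 per group). Dsg2 thus fell by 1.56 ± 0.12 (SE) on the log2 scale (edgeR adjusted p = 4.89e-05), with 33.9% of the vector level left.

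Dsc2, the widely expressed desmocollin that partners Dsg2 in simple epithelia, lies 498.6 kb away on the same chromosome (minus strand, 20030798 to 20059505). It was at 10.4, 10.6 and 10.4 CPM in 393P_vector samples and at 70.6, 71.1 and 58.1 CPM in 393P_ZEB1 samples. The vector samples were nearly equal and all 3 ZEB1 samples were far above them. The log2 fold change of Dsc2 was 2.67 ± 0.13 (SE, edgeR adjusted p = 3.6e-06), a 6.38-fold rise that placed it 282nd from the top among 13892 genes. On a scale that corrects for exon length, CPM per kilobase, the level of Dsc2 over that of Dsg2 was 0.362, 0.412 and 0.377 in 393P_vector samples and 6.86, 8.2 and 6.62 in 393P_ZEB1 samples. Dsg2 was the more abundant cadherin in every vector sample and Dsc2 in every ZEB1 sample.

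Both cadherin genes, like Zeb1, sit on chromosome 18, whose genes were shifted upward as a whole in these samples. Over its 396 tested genes the median log2 fold change was 0.64, and 64.4% were called higher and 9.85% lower. Relative to that median, the change of Dsc2 was 2.04 and that of Dsg2 was -2.20, so both kept their direction. On this chromosome 18 genes had a change at least as high as that of Dsc2, itself included, and 29 had one at least as low as that of Dsg2. Of 6 other tested genes within 1 Mb of the pair, 5 were called higher, among them B4galt6 with a log2 fold change of 1.01 and Rnf125 with 5.35, both named after their values were seen. The remaining one was Dsg3, a desmoglein of stratified epithelia, at 0.06 (edgeR adjusted p = 0.932). Whether the shift of chromosome 18 contributes to the rise of Dsc2 was not tested. Medians of the other chromosomes apart from Y ranged from -0.43 for chromosome 17 to 0.27 for chromosome 11. For chromosome Y the median was -6.89 over 6 tested genes. The cause of these shifts was not tested.

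The armadillo proteins ranged from no detectable change to a near loss. Jup encodes plakoglobin, which also binds classical cadherins at adherens junctions, and lies on chromosome 11 (minus strand, 100368856 to 100397790). It was at 218, 198 and 202 CPM in 393P_vector samples and at 170, 248 and 203 CPM in 393P_ZEB1 samples. The ZEB1 samples enclosed the whole range of the vector samples. The log2 fold change of Jup was 0.01 (edgeR adjusted p = 0.983), with a 95% interval from -0.33 to 0.34. Changes within that interval could not be told from none.

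Plakophilins cluster cadherins and desmoplakin at the plaque, and the 3 plakophilins differed in their response. Pkp3 (chromosome 7, plus strand, 141078229 to 141090510) was at 54.8, 59.8 and 30.6 CPM in 393P_vector samples and at 0.299, 0.522 and 0.246 CPM in 393P_ZEB1 samples. The latter rest on 16, 29 and 15 reads, above the 3 counts taken as the floor of detection. The lowest vector sample, replicate 3, was still far above each ZEB1 sample. Pkp3 fell by 7.09 ± 0.39 (SE) on the log2 scale (edgeR adjusted p = 8.22e-06), which left 0.734% of its vector level and was the 39th largest decrease of all tested genes.

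Pkp1, a plakophilin mainly of stratified epithelia (chromosome 1, minus strand, 135871395 to 135919024), was at 66.9, 69.1 and 51.3 CPM in 393P_vector samples and at 48.2, 43.9 and 44.5 CPM in 393P_ZEB1 samples. The groups did not overlap, but vector replicate 3 lay close to the ZEB1 samples. Pkp1 fell by 0.46 ± 0.14 (SE) on the log2 scale (edgeR adjusted p = 0.0345). Without vector replicate 3 the change was -0.58 (adjusted p = 0.000202), and leaving out any other sample ended the call, with adjusted p up to 0.122.

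Pkp2, the plakophilin of simple epithelia and cardiac muscle (chromosome 16, plus strand, 16213345 to 16272712), was at 105, 103 and 97.1 CPM in 393P_vector samples and at 85.7, 83.8 and 85.3 CPM in 393P_ZEB1 samples. The groups did not overlap and the samples of each were close together. The log2 fold change of Pkp2 was -0.26 ± 0.09 (SE), with a 95% interval from -0.47 to -0.05, and it missed the threshold (edgeR adjusted p = 0.0576). Without vector replicate 3 the adjusted p was 0.00617.

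Among the plakins, desmoplakin was nearly lost while periplakin rose. Dsp encodes desmoplakin, the main connection between the plaque and keratins, and lies on chromosome 13 (plus strand, 38151294 to 38198577). It was at 237, 230 and 187 CPM in 393P_vector samples and at 7.76, 6.84 and 8.11 CPM in 393P_ZEB1 samples. Each group was tight relative to the gap between them. Dsp fell by 4.85 ± 0.15 (SE) on the log2 scale (edgeR adjusted p = 7.13e-07), from 218 ± 27.0 CPM to 7.57 ± 0.654 CPM (SD, n = 3 per group), with 3.47% left and rank 168 among decreases. A decrease of at least 8-fold was seen in 380 genes, 2.74% of those tested, and Dsp, Pkp3 and Perp were among them.

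Ppl encodes periplakin, a plakin of the cornified envelope that also associates with desmosomes and keratins (chromosome 16, minus strand, 5086291 to 5132481). It was at 69.5, 75.5 and 43.5 CPM in 393P_vector samples and at 106, 93.7 and 114 CPM in 393P_ZEB1 samples. All 3 ZEB1 samples were above all vector samples, and vector replicate 3 was the lowest. The log2 fold change of Ppl was 0.74 ± 0.20 (SE, edgeR adjusted p = 0.0252). It was 0.53 without vector replicate 3 (adjusted p = 0.00108), and the call was lost without 393P_ZEB1 replicate 1 or replicate 3 (adjusted p = 0.0834 and 0.0847). Relative to the median of chromosome 16, at 0.25, the change of Ppl was 0.49 and not called (edgeR adjusted p = 0.112).

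Evpl encodes envoplakin, which pairs with periplakin (chromosome 11, minus strand, 116220559 to 116238091). It was at 25.2, 29.5 and 12.7 CPM in 393P_vector samples and at 11.3, 10.9 and 14.0 CPM in 393P_ZEB1 samples. The groups overlapped, since vector replicate 3 fell within the range of the ZEB1 samples. Evpl was just called, with a log2 fold change of -0.89 ± 0.29 (SE, edgeR adjusted p = 0.0464), and an exact two-sided permutation test of log2 CPM gave p = 0.2, where 0.1 is the smallest value that 3 samples against 3 allow. Without vector replicate 3 the change was -1.18 (edgeR adjusted p = 3.55e-05), and without any other sample the call was lost, with adjusted p up to 0.151.

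Perp, a p53-responsive membrane protein that is needed for stable desmosomes in stratified epithelia, lies on chromosome 10 (plus strand, 18845071 to 18857072). It was at 85.6, 74.5 and 123 CPM in 393P_vector samples and at 9.98, 9.13 and 9.88 CPM in 393P_ZEB1 samples. The ZEB1 samples were nearly equal and far below the vector samples, of which replicate 3 was the highest. Perp fell by 3.29 ± 0.20 (SE) on the log2 scale (edgeR adjusted p = 1.45e-05), with 10.2% left, and the change was -3.05 without vector replicate 3. In that replicate Perp was high together with E-cadherin (Cdh1), which reached 231 CPM there and 113 and 143 CPM in the other vector samples, whereas Pkp3, Ppl and Evpl were low in it. Cdh1, the adherens junction cadherin whose loss is a reference sign of epithelial-to-mesenchymal transition, was at 8.84, 9.43 and 10.3 CPM in 393P_ZEB1 samples (log2 fold change -4.09 ± 0.28, edgeR adjusted p = 2.28e-05).

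The tables also list how many exons of each gene held more than 10 reads. For Dsp these were 24 of 24 exons in every 393P_vector sample and 5, 4 and 6 exons in the 393P_ZEB1 samples. Pkp3 went from 14 of 15 exons in every vector sample to 0 in every ZEB1 sample, where no exon exceeded 10 reads although the gene as a whole had at least 15. For Dsc2, whose gene has 17 exons, the number was 14, 15 and 16 in the vector samples and 17, 17 and 16 in the ZEB1 samples. Jup, Pkp2, Ppl and Perp had all their exons above 10 reads in all 6 samples.

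**Figure D3:**
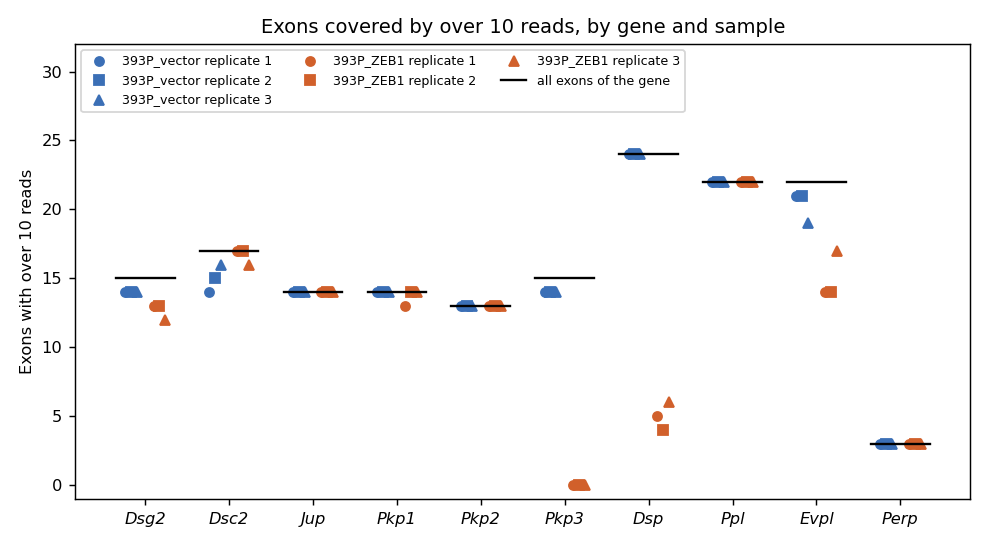
Number of exons with more than 10 reads for each desmosome component in each 393P_vector sample (blue) and each 393P_ZEB1 sample (orange), with a black line at the number of exons of the gene. Dsp drops from 24 exons to between 4 and 6 and Pkp3 from 14 to 0.

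To compare levels between genes, CPM was divided by exon length in kilobases. On this scale the summed level of the 10 components was 207, 199 and 198 CPM per kilobase in 393P_vector samples and 118, 129 and 122 in 393P_ZEB1 samples. The groups were well apart, with means of 201 ± 5.05 and 123 ± 5.65 (SD, n = 3 per group), and the largest drops were in Perp and Dsp. In vector samples the order of mean levels was Perp, Jup, Pkp2, Dsp, Pkp3, Pkp1, Ppl, Dsg2, Evpl and Dsc2. In that order Perp and Jup overlapped between samples, as did Dsp with Pkp3, Pkp3 with Pkp1, Pkp1 with Ppl, and Evpl with Dsc2. In 393P_ZEB1 samples the order was Jup, Pkp2, Ppl, Dsc2, Pkp1, Perp, Dsg2, Evpl, Dsp and Pkp3, in which Ppl overlapped with Dsc2 and Dsg2 with Evpl. Dsc2 moved from rank 10 to rank 4 and Perp from rank 1 to rank 6.

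**Figure D4:**
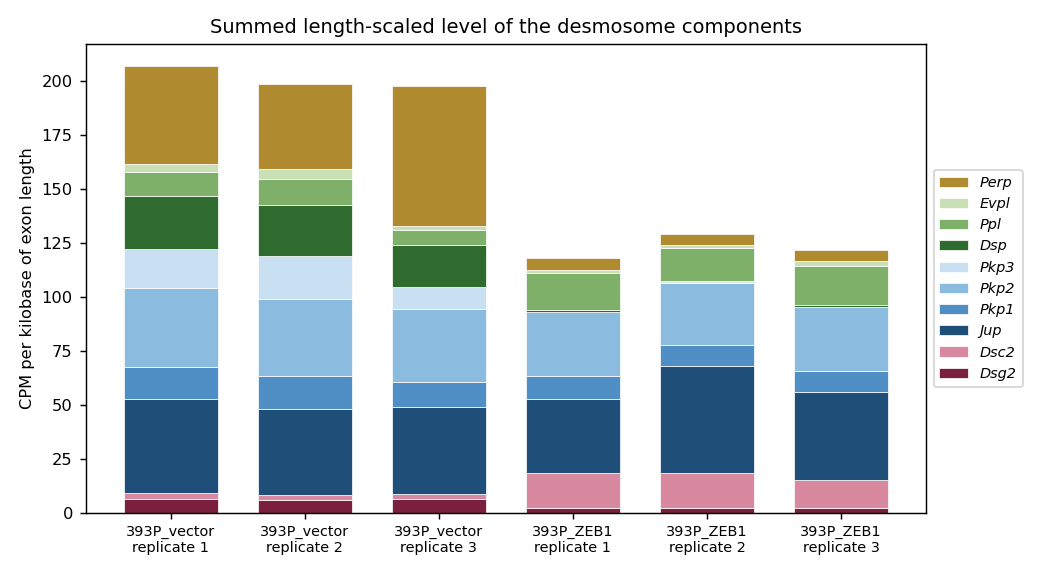
Stacked bars of the length-scaled level, in CPM per kilobase of exon length, of the 10 desmosome components in each sample. The bars reach 198 to 207 in 393P_vector samples and 118 to 129 in 393P_ZEB1 samples, in which the Perp, Dsp and Pkp3 layers are thin and the Dsc2 layer is thick.

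The makeup of each protein class shifted on the same scale. Among the plakins, Dsp held 62.2%, 59.0% and 68.6% of the summed level in 393P_vector samples and 4.15%, 4.11% and 3.98% in 393P_ZEB1 samples. The share of Ppl was 24.4% to 29.6% in vector samples and 85.7% to 86.7% in ZEB1 samples. The summed plakin level itself was lower, at 28.5 to 40.7 CPM per kilobase in vector samples and 17.4 to 21.3 in ZEB1 samples, so the share of Ppl rose mainly because Dsp left the sum. The mean level of Dsp went from 22.8 to 0.791 CPM per kilobase and that of Ppl from 10 to 16.7. Evpl kept a share of 7% to 11.3% in the former and 9.12% to 10.3% in the latter, which overlapped. Among the plakophilins, Pkp3 held 18.3% to 27.8% in vector samples and 0.204% to 0.441% in ZEB1 samples, and Pkp2 rose in share from 50.4% to 61.0% to between 73.2% and 74.7%. The mean level of Pkp2 itself did not rise, at 35.3 CPM per kilobase in vector samples and 29.5 in ZEB1 samples. Because Jup was level and Dsp was low, the amount of Jup per Dsp was 1.76, 1.65 and 2.07 in vector samples and 42.1, 69.4 and 48.0 in ZEB1 samples. The cadherins rose from 4.14% to 4.36% of the summed level of all components to between 12.5% and 15.6%. Their mean summed level rose from 8.57 to 17.2 CPM per kilobase, an increase carried by Dsc2, while that of all components fell from 201 to 123.

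Promoter windows of 300 bases, 250 before and 50 after the transcription start, were given by RefSeq on GRCm38.p6 for Dsp and Jup. These are the components with a window in the table used here, and they are shown because ZEB1 is known to bind E-boxes of the form CACCTG or CAGGTG. In 393P_ZEB1 samples Dsp was at 3.47% and Jup at 100% of the vector level. The stretch from 150 bases before to 30 bases after the start is printed for each, on the strand of the gene, with any CACCTG or CAGGTG in capitals. It spans chr13:38151144-38151323 (plus strand) for Dsp and chr11:100397761-100397940 (minus strand) for Jup.

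Dsp: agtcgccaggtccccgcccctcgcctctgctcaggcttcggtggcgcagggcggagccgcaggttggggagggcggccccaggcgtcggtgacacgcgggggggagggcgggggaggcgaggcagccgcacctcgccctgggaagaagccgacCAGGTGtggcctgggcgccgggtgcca

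Jup: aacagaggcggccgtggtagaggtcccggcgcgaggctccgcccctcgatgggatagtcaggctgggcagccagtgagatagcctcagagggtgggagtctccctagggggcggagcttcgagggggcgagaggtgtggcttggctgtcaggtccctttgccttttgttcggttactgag

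The Dsp window held 1 match, a CAGGTG that begins at base 4 when the start is base 1, and the Jup window held none. On both strands, 20.2% of 32851 promoter windows of the same length held either motif, and a match in 1 of 2 windows cannot be set apart from that share. The broader form CANNTG, which includes both motifs, was found in 72.3% of all windows and in the same member window. In the GENCODE annotation the Dsp window also lies within Gm10129, a gene on the opposite strand. Dsg2 overlaps Gm16090 on the opposite strand, and Pkp1 overlaps Gm36938 on the same strand. Whether reads were counted by strand is not given in the sources used here, so reads of Dsg2 and Dsp could not be separated from those of their opposite partners. Reads in the overlap of Pkp1 and Gm36938 could not be separated by strand in either case. Pkp3, Pkp1, Pkp2, Dsg2, Dsc2, Ppl, Evpl and Perp are named only.

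Most of the other desmosomal genes were near the detection limit in these cells. Of 10 such genes, the epidermal cadherins Dsg1a, Dsg1b, Dsg1c, Dsg4, Dsc1 and Dsc3 did not pass the filter, with at most 13 reads in any sample. Dsg3 was tested at a mean of 0.157 CPM in 393P_vector and 0.163 CPM in 393P_ZEB1. No desmosomal cadherin besides Dsg2 and Dsc2 was thus above 0.229 CPM in any sample. Pkp4, a plakophilin relative found at both desmosomes and adherens junctions, was at 295, 319 and 233 CPM in vector samples and at 243, 235 and 249 CPM in ZEB1 samples, which overlapped (log2 fold change -0.22 ± 0.13, edgeR adjusted p = 0.233; without vector replicate 3, -0.34 and 0.00327).

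Kazn and Cdsn were the other desmosomal genes that changed. Kazn encodes kazrin, which binds periplakin, and was at 10.3, 10.2 and 7.75 CPM in 393P_vector samples and at 0.206, 0.216 and 0.311 CPM in 393P_ZEB1 samples. It fell by 5.25 ± 0.25 (SE) on the log2 scale (edgeR adjusted p = 4.05e-06), opposite in direction to Ppl. Cdsn, which encodes corneodesmosin, an adhesive protein of modified desmosomes in the outer epidermis, was at 0.671, 0.663 and 0.325 CPM in vector samples and at 2.34, 2.25 and 1.93 CPM in ZEB1 samples. Its log2 fold change was 1.99 ± 0.30 (SE, edgeR adjusted p = 0.00164), at low levels in both groups.

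The keratins, to which desmosomes are anchored, and the plakins and integrins of hemidesmosomes, the junctions that hold cells to the basement membrane, fell with Dsp more often than they rose. Of 15 tested intermediate filament genes, 11 were called lower and 1 higher (12 and 1 without vector replicate 3). For this and the list counts below, the shares over all tested genes were 19.3% lower and 18.3% higher. Without vector replicate 3, more of all genes were called, 3776 lower and 3700 higher. Krt7, a keratin of simple epithelia, was at 826, 916 and 741 CPM in 393P_vector samples and at 2.04, 2.72 and 2.05 CPM in 393P_ZEB1 samples, a log2 fold change of -8.51 ± 0.20 (edgeR adjusted p = 3.71e-07), where that of Pkp3 was -7.09. Krt14, a basal keratin present at only 1.56 to 2.65 CPM in vector samples, had a change of -4.38 ± 0.33 (adjusted p = 4.03e-05). Some of the keratins called lower had means below 1 CPM in both groups. The most abundant keratins, Krt18, Krt8 and Krt19, changed less. Krt18 and Krt8 were at -0.77 ± 0.11 and -0.61 ± 0.11 (edgeR adjusted p = 0.00113 and 0.00359). Krt19 was at -0.39 ± 0.15 and not called (adjusted p = 0.0809). Without vector replicate 3, Krt19 was at -0.53 (adjusted p = 0.000901). Vim, the mesenchymal filament protein vimentin, was already at 5130 to 5770 CPM in vector samples and was at 6800 to 7770 CPM in ZEB1 samples (log2 fold change 0.41 ± 0.12, adjusted p = 0.0256). The vimentin call was lost in 4 of the 6 fits that left out 1 sample, with adjusted p up to 0.1.

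Of the 11 plakin and hemidesmosome genes, 6 were called lower and 1 higher (7 and 1 without vector replicate 3). Lama3, the alpha chain of laminin-332, was at 64.9, 66.4 and 61.6 CPM in 393P_vector samples and at 1.42, 1.66 and 1.69 CPM in 393P_ZEB1 samples, a log2 fold change of -5.34 ± 0.14 (edgeR adjusted p = 3.71e-07). Like Dsg2 it fell against the upward shift of chromosome 18. The plakin Eppk1 (epiplakin) was at 69.4 to 122 CPM in vector samples and at 22.3 to 27.5 CPM in ZEB1 samples (log2 fold change -2.01 ± 0.21, adjusted p = 0.000258). Itga6, the integrin alpha subunit of hemidesmosomes and of other laminin receptors, was called higher at 0.66 ± 0.11 (adjusted p = 0.00226).

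Relatives of single components were also examined. Of 7 tested armadillo relatives, 2 were called lower and 1 higher (3 and 2 without vector replicate 3). Ctnnd1, the adherens junction protein p120 catenin, was at 769 to 901 CPM in 393P_vector samples and at 593 to 675 CPM in 393P_ZEB1 samples (log2 fold change -0.35 ± 0.11, edgeR adjusted p = 0.0436), a call lost without any 1 sample except vector replicate 3. Apc, on chromosome 18, was called higher at 0.39 ± 0.11 (adjusted p = 0.0282) but was at -0.25 relative to the median of its chromosome, and its call was likewise lost without any sample other than vector replicate 3. Of 6 tested relatives of Perp and members of the p53 family, 2 were called higher and 4 were not called (5 higher without vector replicate 3). The tetraspan relatives Tmem47 and Emp2 changed by 5.26 ± 0.23 and 1.17 ± 0.10 on the log2 scale (edgeR adjusted p = 2.59e-06 and 5.58e-05), where Perp changed by -3.29. Tmem47 was at 0.119 to 0.169 CPM in vector samples and at 4.98 to 6.12 CPM in ZEB1 samples, which did not overlap.

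**Figure D5:**
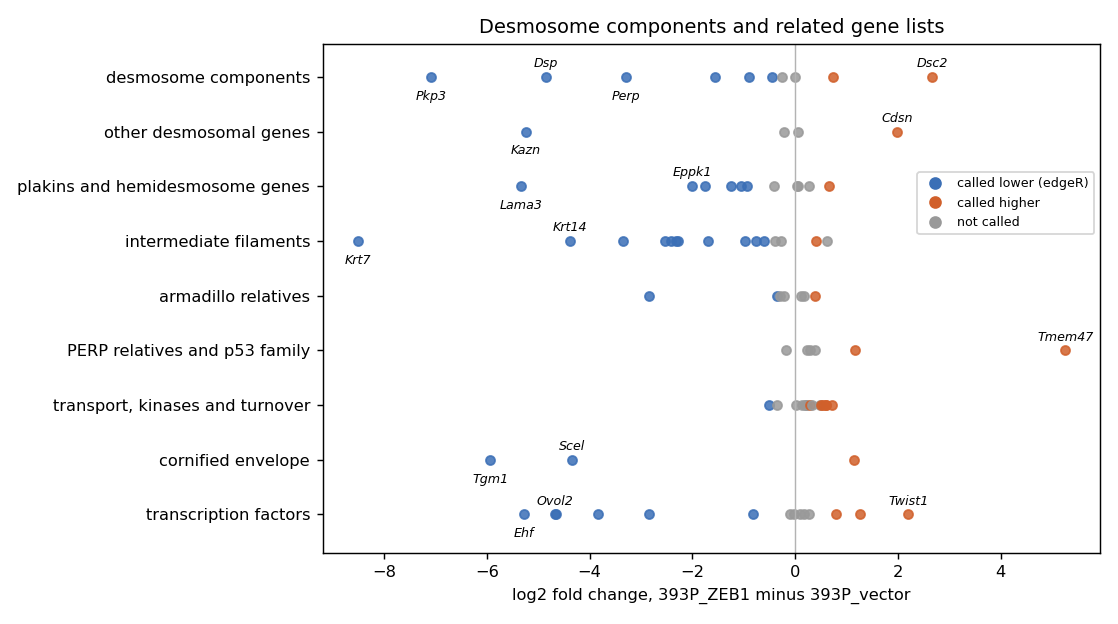
Log2 fold change, 393P_ZEB1 minus 393P_vector, of each tested gene (point) in the desmosome components and 8 related lists, colored by the edgeR call. Points of the intermediate filament list lie mostly to the left, with Krt7 at -8.51, and Tmem47 lies farthest to the right, at 5.26.

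Of 15 tested genes for the transport, phosphorylation and turnover of desmosomal proteins, 6 were called higher and 1 lower (7 and 2 without vector replicate 3). Kif3a, a kinesin-2 motor subunit, had a log2 fold change of 0.71 ± 0.10 and Egfr, the receptor whose signaling is known to loosen desmosomes, one of 0.61 ± 0.09 (edgeR adjusted p = 0.00132 and 0.00136). Prkca, a kinase known to lower desmosome adhesion, was at 82.7 to 96.7 CPM in 393P_vector samples and at 60.3 to 63.2 CPM in 393P_ZEB1 samples (log2 fold change -0.52 ± 0.10, adjusted p = 0.00574). Of 11 cornified envelope genes, which include partners of Ppl and Evpl, only 3 were tested. Tgm1, the transglutaminase that crosslinks the envelope, and Scel (sciellin) were called lower, at -5.93 ± 0.30 and -4.35 ± 0.27 on the log2 scale (edgeR adjusted p = 5.95e-06 and 1.57e-05). Sprr1a was called higher at 1.15 ± 0.38 (adjusted p = 0.0478), and without vector replicate 3, its highest vector sample, at 1.78 (adjusted p = 3.24e-06), while leaving out any other sample ended the call.

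Of 14 transcription factors of epithelial and mesenchymal states, 6 were called lower and 3 higher (6 and 4 without vector replicate 3). Ehf, an epithelial ETS factor, was at 5.57, 4.22 and 5.56 CPM in 393P_vector samples and at 0.0748, 0.198 and 0.115 CPM in 393P_ZEB1 samples, a log2 fold change of -5.28 ± 0.33 (edgeR adjusted p = 1.38e-05). Ovol2, a zinc finger factor that maintains the epithelial state, was at 1.02 to 2.00 CPM in vector samples and had a change of -4.68 ± 0.52 (adjusted p = 0.000333), with 10 reads over the ZEB1 samples together. Twist1, a mesenchymal factor, was at 0.187 to 0.518 CPM in vector samples and at 1.77 to 1.98 CPM in ZEB1 samples (log2 fold change 2.21 ± 0.35, adjusted p = 0.00194). The rise of Zeb1 itself was 1.26 ± 0.10 (edgeR adjusted p = 6.06e-05), and relative to the median of chromosome 18 it was 0.63 (adjusted p = 0.00271). Over the 8 lists outside the desmosome components, 29 genes were called lower and 16 higher, where the shares over all tested genes were 19.3% and 18.3%. The lists held 4 other desmosomal, 15 intermediate filament, 11 plakin and hemidesmosome and 7 armadillo genes that were tested. Tested genes of the remaining lists were 6 for Perp relatives and the p53 family, 15 for transport, 3 for the cornified envelope and 14 transcription factors. Pkp4 was in more than 1 list.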

How the data were processed

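RNA sequencing values of 6 samples were grouped by the vector named in their labels. The authors deposited, per sample and RefSeq gene, the unnormalized count of reads, the exon length, the RPKM and the number of exons with over 10 reads. Per the labels, total RNA was prepared with the SOLiD total RNA-seq kit. The aligner and counting program are not given in the sources used here, and coordinates match GRCm38. The totals implied by the deposited RPKM were 99.1% to 99.32% of the summed counts.

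Counts were tested in R 4.3.3 with edgeR 4.0.16 (filterByExpr, minimum count 10, TMM factors 0.9789 to 1.05, robust quasi-likelihood, Benjamini-Hochberg threshold 0.05), which kept 13892 of 24214 genes at a biological coefficient of variation of 0.184. SE is the size of the log2 fold change divided by the square root of F. SD are over CPM. Alternatives used DESeq2 1.42.0 and limma 3.58.1, and procedures were tested on simulated data. Tables and figures were made with Python 3.11.15 (pandas 2.3.3, NumPy 2.4.6, SciPy 1.17.1, matplotlib 3.10.9). The components and related lists were chosen with earlier results of these data known. From each list the text names, among called genes with at least 1 CPM in the higher group, the 2 that rose most and the 2 that fell most, all other desmosomal genes, Zeb1, Cdh1 and Vim. The 8 epithelial markers are named as well.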

Additional observations from a re-analysis of the deposited data

How the results depend on the processing

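Dsp, Pkp3, Perp, Dsg2 and Dsc2 kept their direction and call under every alternative run. The other components depended on the processing, and the cause was not tested. The uncalled change of Jup turned to -0.0049 with at least 10 counts in every sample and to -0.26 relative to its chromosome, and ranged from -0.14 to 0.13 when single samples were left out. Pkp2 passed the threshold with limma voom (-0.30), with at least 10 counts in every sample (-0.27) and relative to its chromosome (-0.51), and ranged from -0.29 to -0.23 with single samples left out. Pkp1 (-0.46), Evpl (-0.89) and Ppl (0.74) lost their call at an adjusted p threshold of 0.01 and against a fold change of 1.5, and with single samples left out ranged from -0.58 to -0.37, -1.18 to -0.64 and 0.53 to 0.89, respectively. Ppl also lost it relative to its chromosome (0.49), and Apc turned to -0.25.

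Between samples with equal replicate numbers, deviations from the group means correlated at 0.279, -0.205 and -0.0377. With 3 samples per group, these values cannot decide whether such samples were paired. With a replicate block, Jup was at -0.0103, Pkp1 (-0.44) and Evpl (-0.82) were no longer called, and 4 components were called lower.

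The number of components called higher was 1 at the 0.01 threshold, against a fold change of 1.5 and relative to the chromosome, an alternative added after seeing the data for the counts, and was 1 to 2 with single samples left out. The median change of the components was -0.84 with limma voom and -0.84 relative to the chromosome, and ranged from -0.88 to -0.51 with single samples left out. All genes called lower and higher numbered 4094 and 3977 with limma voom, 1545 and 1584 at the 0.01 threshold, and 1118 and 1081 against a fold change of 1.5. With single samples left out, those called lower ranged from 1784 to 3776. In the related lists, 19 were called lower with at least 10 counts in every sample, which tests fewer genes, and 10 and 5 were called higher at the 0.01 threshold and against a fold change of 1.5, or 10 to 23 with single samples left out. DESeq2's size factors, its Wald test, no filter on low counts and leaving out the 10 most counted genes changed no component's call.

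With 3 samples per group, a change of Jup within its interval (-0.33 to 0.34) was not detectable, and the levels of Pkp3 in 393P_ZEB1 samples rest on 15 to 29 reads.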
